A study of Bos taurus with 6 samples.

Results

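The miR-183 cluster consists of bta-miR-182, bta-miR-183 and bta-miR-96, and its members were taken by exact name from the miRNA tables of the 6 liver libraries. All 3 were among the 1030 mature miRNAs listed, each with 1 precursor and no other listed arm. Liver of Wye Angus steers, a beef breed, was collected from the left lobe at market weight in 3 grass-fed animals aged 21 months and 3 grain-fed animals aged 14 months, with 1 small RNA library per animal. Values of a group are listed below in the order of replicates 1, 2 and 3 of the labels. Grass-fed steers lived on forage (pasture, hay and alfalfa), whereas the grain-fed ration was built on corn, as silage and shelled grain, with soybean and a mineral supplement. All animals came from a herd that had long been closed to outside breeding. The comparison asks whether the level of these miRNAs in liver differs between the regimens, and diet and age cannot be told apart.

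The 3 miRNAs are cut from a shared primary transcript, a polycistron, that is conserved in vertebrates and best known from sensory organs such as the retina and the inner ear. In liver the locus is known as a target of SREBP-2, the transcription factor that switches on cholesterol synthesis and uptake when cell sterol is low, and miR-182 and miR-96 act back on that pathway through FBXW7 and INSIG2, which restrain SREBP. The members also share FOXO1, a transcription factor of gluconeogenesis, as a known target. By RefSeq's gene table for ARS-UCD2.0, a newer assembly than that of the files, MIR182, MIR96 and MIR183 followed each other with no other annotated gene between them, and the protein-coding genes NRF1 and LOC132345191 were the nearest on either side.

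The libraries held between 3824592 and 6133960 miRNA counts in the grass-fed group and between 464875 and 892929 in the grain-fed group, so that the grain-fed values rest on fewer counts. A filter that asked for more than 2 counts in 2 or more libraries left 456 mature miRNAs to test, and all 3 members passed it. The libraries were dominated by hepatocyte miRNAs, and bta-miR-122, the defining miRNA of hepatocytes, had the highest mean level of all. Levels are given as CPM, counts scaled to a common library size, after scaling by the TMM method of edgeR, which reduces the influence of a few very abundant miRNAs on the others. TMM factors ran from 0.692 to 0.996 in grass-fed and from 1.11 to 1.21 in grain-fed libraries. The lowest factor, that of grass-fed replicate 2, raises its CPM relative to its count.

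The cluster was a minor component of the liver miRNA pool. Its 3 members together took between 0.00258% and 0.00740% of all miRNA counts. The summed cluster had 178, 297 and 191 counts in the grass-fed libraries and 56, 47 and 12 in the grain-fed libraries. On the CPM scale the sum was 37.5, 70.0 and 50.1 in the grass-fed and 54.5, 66.5 and 21.3 in the grain-fed libraries. The grass-fed and grain-fed sums overlapped, with the highest value in grass-fed replicate 2 and the lowest in grain-fed replicate 3. With scaling by total counts only, grain-fed replicate 2 was highest at 74.0 CPM, against 48.4 CPM in grass-fed replicate 2, and grain-fed replicate 3 was again lowest. The mean was 52.5 ± 16.4 CPM in grass-fed and 47.5 ± 23.4 CPM for grain-fed animals (SD, n = 3 per diet), a ratio of 1.11 that became 0.821 with scaling by total counts only. In whole liver, fewer cells that express a miRNA and less of it per cell cannot be told apart.

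bta-miR-182, the most abundant member, ranked 181 of the 456 tested miRNAs by mean CPM. It had 99, 188 and 120 counts in the grass-fed libraries, or 20.8, 44.3 and 31.5 CPM. In the grain-fed libraries it had 33, 29 and 9 counts, or 32.1, 41.1 and 16.0 CPM. The ranges of the diets overlapped over most of their length, with the lowest value in grain-fed replicate 3 and the highest in grass-fed replicate 2. With total counts alone the highest was grain-fed replicate 2, at 45.7 CPM. Grain-fed replicate 3 and grass-fed replicate 1 were then close together at the lower end, at 19.4 and 19.5 CPM. The group means were 32.2 ± 11.7 CPM in grass-fed and 29.7 ± 12.7 CPM for grain-fed animals (SD, n = 3 per diet). The log2 fold change of grass-fed over grain-fed was 0.07 (standard error 0.39, FDR = 0.925 by edgeR's quasi-likelihood test, adjusted after Benjamini and Hochberg over all tested miRNAs). The 95% interval of the fold ran from 0.587 to 1.88.

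bta-miR-183, which gives the cluster its name, ranked 225 of 456. Its counts were 73, 89 and 63 in grass-fed replicates 1, 2 and 3, or 15.4, 21.0 and 16.5 CPM. The grain-fed libraries had 21, 16 and 3 counts, or 20.5, 22.7 and 5.32 CPM. Grain-fed replicates 1 and 2 were at the upper end of the grass-fed range or above it, and grain-fed replicate 3 was below every other library. The means were 17.6 ± 2.96 CPM in grass-fed and 16.1 ± 9.44 CPM for grain-fed animals (SD, n = 3 per diet). The log2 fold change was 0.04 (standard error 0.40, FDR = 0.947, edgeR), with a 95% interval of the fold from 0.565 to 1.87.

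bta-miR-96, the member nearest to the detection limit, ranked 358 of 456. It had 6, 20 and 8 counts in the grass-fed libraries, or 1.26, 4.71 and 2.10 CPM. Grain-fed replicates 1 and 2 had 2 counts each, or 1.95 and 2.83 CPM, and grain-fed replicate 3 had 0 counts, which allows a level of up to 5.32 CPM when 3 counts are taken as the floor. At the grass-fed mean level, the effective depth of the grain-fed libraries would give 2.76, 1.90 and 1.52 counts, so the 0 in grain-fed replicate 3 is not a detectable absence. The means were 2.69 ± 1.80 CPM in grass-fed and 1.59 ± 1.45 CPM for grain-fed animals (SD, n = 3 per diet). The log2 fold change was 0.60 (standard error 0.92, FDR = 0.753, edgeR). The 95% interval of the fold ran from 0.386 to 5.98. It includes a level several fold higher in grass-fed liver as well as a lower one. Intervals and floors cited for single libraries cover counting error only, and not the variation between animals. The reads carry no stated molecular identifiers.

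**Figure D1:**
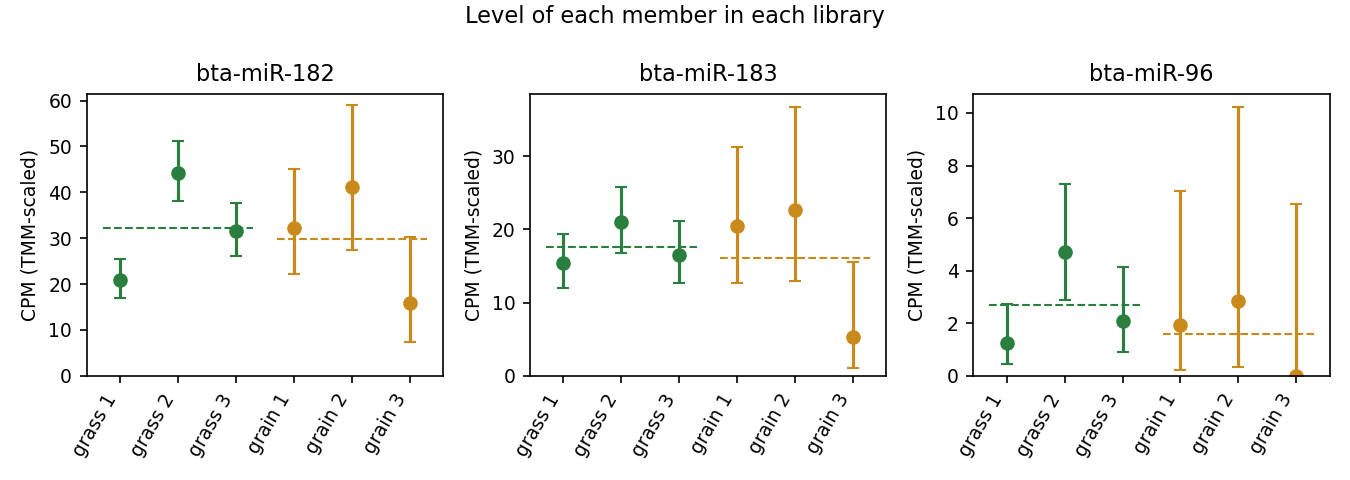
CPM after TMM scaling (vertical axis, from 0) of bta-miR-182, bta-miR-183 and bta-miR-96 in each library (horizontal axis, grass-fed in green and grain-fed in ochre). Points are libraries, bars are 95% Poisson intervals of the count, and dashed lines are group means; the groups overlap for each member, and the grain-fed intervals are wide, from 1.10 to 15.6 CPM for bta-miR-183 in grain-fed replicate 3.

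None of the 3 members passed FDR 0.1 between the diets, where 19.1% of the 456 tested miRNAs did. None had an unadjusted p below 0.05 in edgeR, DESeq2 or limma-voom. The CPM ranges of all 3 overlapped between the diets, while those of 32.9% of all tested miRNAs did not. Standard errors of bta-miR-182 and bta-miR-183 were near the median of 0.43 over all tested miRNAs, and that of bta-miR-96 was larger. These tests do not show that the levels were equal. Under TMM scaling they bound the fold of bta-miR-182 and bta-miR-183 to the intervals given above, which do not cover the choice of scaling. The sign of the fold change of bta-miR-182 and bta-miR-183 turned with the scaling, to -0.38 and -0.39 on the log2 scale with total counts only, where the median of all tested miRNAs moved from 0.13 to -0.29.

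**Figure D2:**
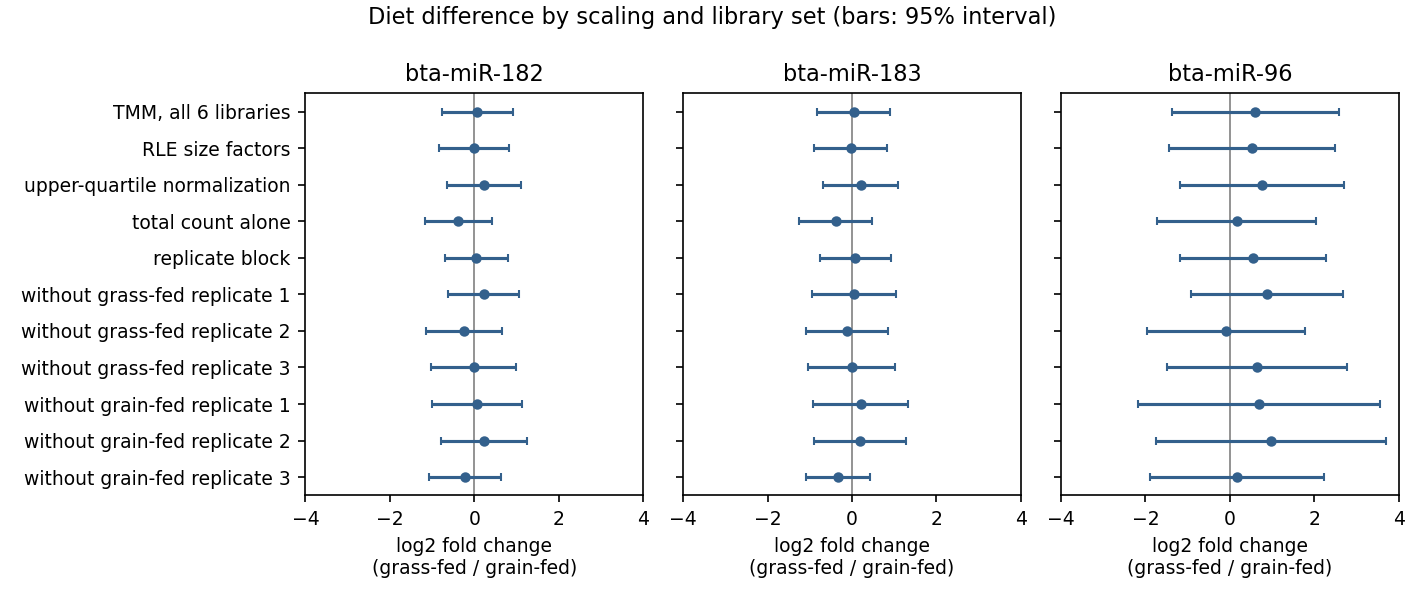
Log2 fold change of grass-fed over grain-fed liver (horizontal axis) for each member, from edgeR fits that differ in the scaling, the replicate block or the libraries used (vertical axis). Points are fitted values and bars are 95% intervals; each interval includes 0, and for bta-miR-182 the points run from -0.38 with total counts alone to 0.24 without grain-fed replicate 2.

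The proportions of the members within a library do not depend on the scaling and were compared next. bta-miR-182 made up 55.6%, 63.3% and 62.8% of the cluster's counts in the grass-fed libraries. It made up 58.9%, 61.7% and 75% in the grain-fed libraries. The highest share was that of grain-fed replicate 3, where it rests on 12 counts and has an exact Clopper-Pearson 95% interval from 42.8% to 94.5%. bta-miR-183 took 41.0%, 30.0% and 33.0% of the counts in the grass-fed and 37.5%, 34.0% and 25% in the grain-fed libraries. bta-miR-96 took 3.37%, 6.73% and 4.19% in the grass-fed and 3.57%, 4.26% and 0% in the grain-fed libraries, where the exact upper limit of the last is 26.5%. The order bta-miR-182, bta-miR-183, bta-miR-96 was thus found in each of the 6 libraries. Mature miRNAs are of like length, and unequal ligation of different sequences was not measured, so that the proportions are those of the counts.

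**Figure D3:**
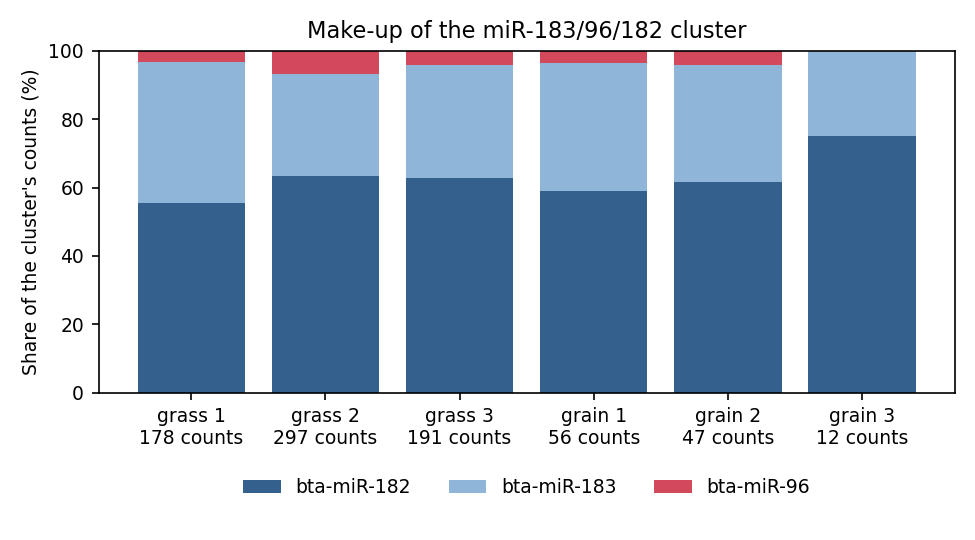
Share of the cluster's counts (vertical axis, in percent) taken by bta-miR-182, bta-miR-183 and bta-miR-96 in each library (horizontal axis, with the cluster's total count under each bar). The share of bta-miR-182 lies between 55.6% and 63.3% in all libraries but grain-fed replicate 3, which has 12 counts in all.

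The ratio of bta-miR-182 to bta-miR-183 was 1.36, 2.11 and 1.90 in the grass-fed libraries and 1.57, 1.81 and 3.00 in the grain-fed libraries. On the log2 scale the ratio was 0.82 ± 0.33 in grass-fed and 1.03 ± 0.49 for grain-fed animals (SD, n = 3 per diet, two-sided exact permutation p = 0.7). For the ratios with bta-miR-96, a pseudocount of 0.5 was added to both counts because of its 0. The log2 ratio of bta-miR-182 to bta-miR-96 was 3.65 ± 0.40 in grass-fed and 3.85 ± 0.36 for grain-fed animals (SD, n = 3 per diet, exact permutation p = 0.6). The log2 ratio of bta-miR-183 to bta-miR-96 was 2.84 ± 0.69 and 2.88 ± 0.20 in the same order (SD, n = 3 each, exact permutation p = 1). The diets thus differed by less than the spread between replicates in each of the 3 ratios, and p after Benjamini-Hochberg adjustment over the 3 exact permutation tests was 1 for each. With 3 libraries against 3 the smallest exact permutation p is 0.1, so these tests could not pass 0.05.

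The members varied together over the libraries on the log2 CPM scale, with a prior count of 2. For bta-miR-182 and bta-miR-183, Pearson's r was 0.877 (exact permutation p = 0.00417, adjusted over 3 pairs 0.00625) and Spearman's rho was 0.943 (exact permutation p = 0.0167, adjusted 0.025) over the 6 libraries. For bta-miR-182 and bta-miR-96, r was 0.952 (exact permutation p = 0.00278, adjusted 0.00625) and rho 0.943 (exact permutation p = 0.0167, adjusted 0.025). For bta-miR-183 and bta-miR-96, r was 0.930 (exact permutation p = 0.0139, adjusted 0.0139) and rho 0.886 (exact permutation p = 0.0333, adjusted 0.0333). All 3 members had their lowest level in grain-fed replicate 3, the library with the fewest counts. After TMM scaling bta-miR-182 and bta-miR-96 were highest in grass-fed replicate 2 and bta-miR-183 in grain-fed replicate 2.

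The call for co-variation depended on grain-fed replicate 3. Without it, r over the other 5 libraries was 0.864 for bta-miR-182 with bta-miR-183, 0.921 for bta-miR-182 with bta-miR-96 and 0.704 for bta-miR-183 with bta-miR-96, and the adjusted exact permutation p was 0.0875, 0.0875 and 0.192, where 5 libraries allow an unadjusted p of 0.00833. Without grass-fed replicate 1, bta-miR-183 with bta-miR-96 had r = 0.940 and an adjusted exact permutation p of 0.05. Without the 2 libraries farthest from the median of the member named first, r over 4 libraries was 0.704, 0.919 and 0.743, with an exact permutation p of 0.292, 0.0833 and 0.208. The smallest p that the 24 orderings of 4 libraries allow is 0.0417, so that these tests had little room to pass 0.05. The value of r fell for both pairs with bta-miR-183 and was of like size for bta-miR-182 with bta-miR-96. Those were grass-fed replicate 1 and grain-fed replicate 3 for the pairs with bta-miR-182, and grain-fed replicates 2 and 3 for the other. The correlations of deviations from the diet means were 0.877, 0.984 and 0.934 in the same order, so that r was of like size when the diet means were taken out. The members share each library's depth and scaling factor, and the part of depth in the co-variation was not tested.

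**Figure D4:**
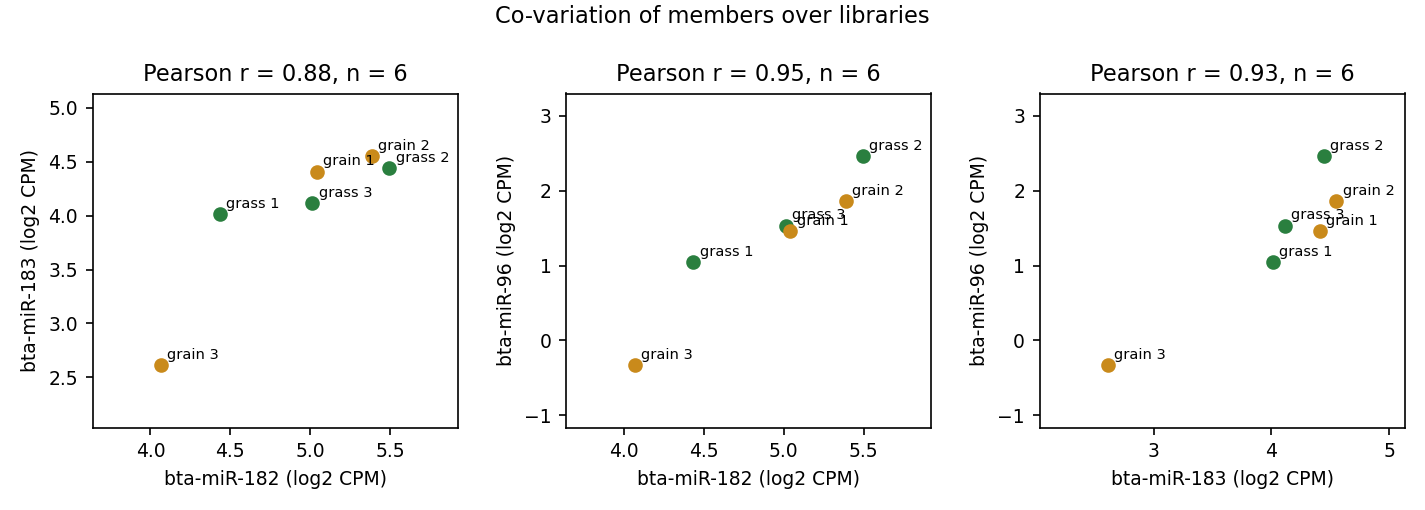
Log2 CPM (prior count 2) of the members against each other, 1 point per library (grass-fed in green, grain-fed in ochre). Pearson's r is 0.88, 0.95 and 0.93 from left to right; grain-fed replicate 3 lies apart at the lower left of each panel, and the 2 diets do not separate.

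Some other miRNAs followed the members as closely as the members followed each other. Over the 33670 pairs of the 260 tested miRNAs with a mean level of at least 10 CPM, the median r was 0.04. Of these pairs, 4.70% had an r as high as bta-miR-182 with bta-miR-183. The share was 1.22% for bta-miR-182 with bta-miR-96 and 2.08% for bta-miR-183 with bta-miR-96. bta-miR-96, at a mean of 2.14 CPM, is itself not among the 260 miRNAs. Among these miRNAs, the most like bta-miR-182 were bta-miR-369-3p (r = 0.890), bta-miR-183 and bta-let-7b (r = 0.851). The most like bta-miR-183 were bta-miR-369-3p (r = 0.915), bta-miR-11991 (r = 0.911) and bta-miR-29d-5p (r = 0.878). The most like bta-miR-96 were bta-miR-182, bta-miR-2336 (r = 0.949) and bta-miR-11991 (r = 0.936). When the other 455 tested miRNAs were ranked by likeness to bta-miR-182, bta-miR-96 was number 1 and bta-miR-183 number 6. In likeness to bta-miR-183, bta-miR-96 was number 4 and bta-miR-182 number 17. In likeness to bta-miR-96, bta-miR-182 was number 2 and bta-miR-183 number 6. These values describe 6 libraries that share their depth and scaling, and the like miRNAs ranged in mean level from 11.5 CPM for bta-miR-2336 to 4892 CPM for bta-let-7b.

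Other pairs of miRNAs known to be encoded together were examined in the same way, chosen after the values of the members had been seen. bta-miR-143 and bta-miR-145, the mesenchymal pair, had r = 0.886. In the epithelial miR-200 family, r was 0.712 for bta-miR-200a with bta-miR-429, 0.243 for bta-miR-200a with bta-miR-200b and -0.23 for bta-miR-200b with bta-miR-429. bta-miR-200c with bta-miR-141 had r = -0.52, and the hepatocyte pair bta-miR-192 and bta-miR-194, of which the latter has 2 listed precursors, had r = -0.54. The values of these pairs thus ran from -0.54 to 0.886. For deviations from the diet means, r was 0.962 for bta-miR-143 with bta-miR-145, 0.810 for bta-miR-200a with bta-miR-429, 0.275 for bta-miR-200a with bta-miR-200b, 0.188 for bta-miR-200b with bta-miR-429, 0.301 for bta-miR-200c with bta-miR-141 and -0.12 for bta-miR-192 with bta-miR-194. Of the 3 negative values, 2 were thus positive when the diet means were taken out, and no difference between these correlations was tested.

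bta-miR-1271, a miRNA of the miR-96 family encoded at another locus and also known to act on FOXO1, had a higher mean level than any member, ranking 163 of 456. Its level was 55.0, 50.7 and 49.3 CPM in the grass-fed libraries and 40.9, 38.2 and 16.0 CPM in the grain-fed libraries. On this scale all grass-fed libraries lay above all grain-fed libraries, unlike those of the 3 members, while with total counts only grass-fed replicate 2, at 35.1 CPM, was below grain-fed replicates 1 and 2, at 47.0 and 42.5 CPM. Its difference of 0.64 on the log2 scale (standard error 0.31, FDR = 0.212, edgeR) did not pass FDR 0.1, and it too was lowest in grain-fed replicate 3. The difference between its fold change and those of the members was not tested.

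Of 19 miRNAs known to act on SREBP, cholesterol efflux or lipoprotein receptors, 16 were tested, 4 were higher and 1 was lower in grass-fed liver at FDR 0.1, where 9.43% of all tested miRNAs were higher and 9.65% lower. The median log2 fold change of the 16 was 0.28, beside 0.13 over all tested miRNAs. It was 0.09 with bta-miR-33a and bta-miR-758, which had 0 grain-fed counts, set to their bounds. The median over all tested miRNAs was not computed with such bounds. Without bounds, the median of the 16 turned to -0.13 with total counts alone, when that over all tested miRNAs was -0.29. In that setting 2 of the list were higher and 4 lower, beside 9 higher and 65 lower of all 456. Without grain-fed replicate 1, 2 of the list were higher, beside 24 of all 453 tested. Without grain-fed replicate 2, 2 were again higher, beside 13 of all 453 tested. Without grass-fed replicate 2, 2 of the list were lower, beside 44 of all 434 tested. The 4 higher were bta-miR-122 (log2 fold change 1.12, FDR = 0.00419), bta-miR-128 (1.82, FDR = 0.00290), bta-miR-30c (0.79, FDR = 0.0203) and bta-miR-185 (0.78, FDR = 0.0406), all from the edgeR fit. bta-miR-128 is known to act on the LDL receptor and ABCA1, bta-miR-30c on MTTP in lipoprotein assembly, and bta-miR-185 on SREBP-2 itself. The 1 lower was bta-miR-26b, with a log2 fold change of -0.95 (FDR = 0.0234, edgeR).

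bta-miR-33a, which is encoded within an intron of SREBF2 and represses ABCA1, was near the detection limit. It had 4, 4 and 3 counts in the grass-fed libraries and 0 counts in each grain-fed library. Its pooled grass-fed level of 0.859 CPM was under the 1.31 CPM that 0 counts over the 3 grain-fed libraries allow, so no fold is given. bta-miR-33b had 1 count in all 6 libraries together and was not tested.

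Of 10 other miRNAs known to act on FOXO1, 8 were tested, 3 were higher and 0 lower in grass-fed liver at FDR 0.1 in edgeR, as in DESeq2 and limma-voom, where 9.43% of all tested miRNAs were higher and 9.65% lower in edgeR. The list had a median log2 fold change of 0.48 beside 0.13 over all tested miRNAs. At an unadjusted p below 0.05, 1 was lower in edgeR, 2 in DESeq2 and 0 in limma-voom. The 3 higher were bta-miR-370 (log2 fold change 1.68, FDR = 0.0169), bta-miR-145 (1.09, FDR = 0.00597) and bta-miR-139 (0.70, FDR = 0.0776) in the edgeR fit. With total counts alone 2 of the list were higher and 2 lower, beside 9 higher and 65 lower of all 456 tested. Without grain-fed replicate 1 only 1 was higher, beside 24 of all 453 tested.

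Marker lists of cell types were read in the same libraries, since the cluster is known from epithelial, sensory and immune cells as well as from hepatocytes. Counts past FDR 0.1 stand beside 9.43% of all tested miRNAs higher and 9.65% lower in grass-fed liver. Some miRNAs are on several lists, so that the counts of the lists are not separate. Of the hepatocyte miRNAs, bta-miR-122 is also on the SREBP and cholesterol list. Of the stellate miRNAs, bta-miR-145 is also on the FOXO1 list. The summed level of 4 hepatocyte miRNAs ran from 516614 to 820705 CPM in grass-fed and from 328202 to 389866 CPM in grain-fed liver. With total counts alone the gap was smaller, from 483290 to 567745 CPM in grass-fed and from 397937 to 433650 CPM in grain-fed liver. Of the 4, 2 were higher in grass-fed liver at FDR 0.1. The summed level of 6 miRNAs of bile duct epithelium was 703, 980 and 722 CPM in grass-fed and 831, 657 and 554 CPM in grain-fed liver. With total counts alone it was 657, 678 and 719 CPM in grass-fed and 955, 731 and 671 CPM in grain-fed liver. Of the 6 miRNAs, bta-miR-200b was higher and bta-miR-141 lower in grass-fed liver at FDR 0.1. The sum of 7 sensory, neural and endocrine miRNAs was 884, 1499 and 746 CPM in grass-fed and 943, 767 and 633 CPM in grain-fed liver. With total counts alone it was 827, 1037 and 744 CPM in grass-fed and 1084, 854 and 768 CPM in grain-fed liver. Of these 7, 5 were tested and 1, bta-miR-204, was higher in grass-fed liver, and bta-miR-124a, the defining neural miRNA, had 1 count in all libraries together. bta-miR-7, which did not pass FDR 0.1, made up most of this list's sum. Its mean was 881 of 1043 CPM in grass-fed and 659 of 781 CPM in grain-fed liver. After TMM scaling the hepatocyte, bile duct, sensory and stellate sums were each highest in grass-fed replicate 2 and lowest in grain-fed replicate 3. The cluster sum had the same extremes. With total counts alone only the hepatocyte sum of these 4 lists kept both extremes, and the cluster sum kept the lowest. The part of these cell types in the level of the cluster was not tested.

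The sum of 7 leukocyte miRNAs was lower in every grass-fed library, from 1359 to 2001 CPM, than in the grain-fed libraries, from 2131 to 2541 CPM, with bta-miR-146a and bta-miR-146b lower at FDR 0.1. It was highest in grain-fed replicate 3, where the cluster was lowest. The 3 erythroid miRNAs summed to 419 to 643 CPM in grass-fed and 465 to 665 CPM in grain-fed liver. With total counts alone their sums were 392, 445 and 451 CPM in grass-fed and 697, 740 and 564 CPM in grain-fed liver. None of the 3 passed FDR 0.1 or had an unadjusted p below 0.05 in edgeR, DESeq2 or limma-voom. Of 5 stellate and mesenchymal miRNAs, 3 were higher at FDR 0.1, beside 9.43% of all tested miRNAs, with sums from 79758 to 115821 CPM in grass-fed and from 73767 to 86467 CPM in grain-fed liver. Most of these sums was bta-miR-143, which did not pass FDR 0.1. Its mean was 91192 of 100681 CPM in grass-fed and 72428 of 78208 CPM in grain-fed liver. With total counts alone the stellate sums were 99598, 80122 and 79451 CPM in grass-fed and 99414, 82745 and 89441 CPM in grain-fed liver. Of 4 skeletal muscle miRNAs, 2 were tested and 0 passed FDR 0.1 in edgeR or DESeq2 and 1 in limma-voom, with bta-miR-1 at an unadjusted p of 0.0226 in edgeR. The muscle sums ran from 312 to 522 CPM in grass-fed and from 197 to 353 CPM in grain-fed liver. The 3 pancreatic miRNAs were lower in grass-fed liver at FDR 0.1. Their sum was at most 1.31 CPM in a grass-fed library and 28.2, 58.1 and 0 CPM in the grain-fed libraries, so that the ranges overlapped. These calls rest on few counts. The grain-fed libraries had 5, 3 and 0 counts of bta-miR-216a, 7, 7 and 0 of bta-miR-216b, and 17, 31 and 0 of bta-miR-217. In grain-fed replicate 3, 0 counts allow up to 5.32 CPM of each when 3 counts are taken as the floor.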

How the data were processed

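The authors trimmed adapters, dropped reads of poor quality or unsuitable length, aligned the rest to ARS-UCD1.2 and used miRDeep2 to count miRNAs known to miRBase. Its version and settings were not given in the sources used here. FastQC 0.11.5 and Trimmomatic 0.36 are named in the submitters' processing notes. The deposited counts are unscaled and listed per mature miRNA and precursor, and the largest count over precursors was taken. The deposited CPM, which divides by the total over all listed pairs, was not used. miRNAs were kept when their count exceeded 2 in 2 or more libraries, TMM-scaled, and tested across all 6 libraries by edgeR 4.0.16 (quasi-likelihood, newer form) in R 4.3.3 at FDR 0.1, adjusted after Benjamini and Hochberg. The standard error was derived as the size of the log2 fold change over the root of F. Ratios and correlations used exact permutation tests. DESeq2 1.42.0, limma-voom (limma 3.58.1), other scalings and filters, the replicate block and each library left out were alternatives.

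The members and lists were chosen with earlier results of these data known. The lists, written from general knowledge, cover SREBP and cholesterol, FOXO1, hepatocytes, bile duct epithelium, sensory, neural and endocrine cells, pancreas, leukocytes, erythroid cells, stellate and mesenchymal cells, and muscle. Named miRNAs were the members, list members past FDR 0.1, and the 3 most correlated with each member among those with at least 10 CPM. A further part of the rule, on shared seeds, was not used here, and bta-miR-1271 is named from the FOXO1 list. Undetected, low or clustered miRNAs named beside these were chosen after their values were seen. mRNA and metabolite data were not analysed here.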

Additional observations from a re-analysis of the deposited data

How the results depend on the processing

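No member passed FDR 0.1 under any of 16 alternatives, with a smallest FDR of 0.574, but the sign of the small fold changes was not stable. The log2 fold change of bta-miR-182 turned from 0.07 to -0.0060 with RLE size factors, -0.38 with total counts alone and -0.066 with at least 10 counts in 3 libraries. That of bta-miR-183 turned from 0.04 to -0.037, -0.39 and -0.087 under the same settings and to -0.010 with counts summed over precursors. bta-miR-96 did not pass the filter of 10 counts in 3 libraries and had no value there. With each library left out, the log2 fold change ran from -0.25 to 0.24 for bta-miR-182, from -0.32 to 0.20 for bta-miR-183 and from -0.093 to 0.98 for bta-miR-96, negative for all 3 without grass-fed replicate 2. The log2 ratios between members, grass-fed minus grain-fed, ran from -0.41 to 0.061 for bta-miR-182 to bta-miR-183, from -0.34 to 0.030 for bta-miR-182 to bta-miR-96 and from -0.36 to 0.32 for bta-miR-183 to bta-miR-96, with no exact permutation p below 0.4. Pearson's r ran from 0.857 to 0.961, from 0.921 to 0.988 and from 0.704 to 0.981 for the same pairs with each library left out, and stayed at 0.801 or above with a prior count of 0.5, total counts alone and RLE size factors, with adjusted exact permutation p of at most 0.0417. The median of the SREBP and cholesterol list turned from 0.28 to -0.13 with total counts alone, while that of all tested miRNAs moved from 0.13 to -0.29. The cause of these turns was not tested.

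No pairing of the libraries by replicate number was seen, though it was only described and not tested. Same-numbered grass-fed and grain-fed libraries had correlations of deviations of -0.05, -0.20 and -0.01. With the replicate number as a block, the log2 fold changes were 0.05, 0.08 and 0.54 for bta-miR-182, bta-miR-183 and bta-miR-96, with no call, and 82 miRNAs passed FDR 0.1 in place of 87. No library correlated best with the library of its own number in the other group. The number of miRNAs past FDR 0.1 moved by more than 1.5 times only without grain-fed replicate 2, to 49. Of the 87, 43 were higher and 44 lower, against 9 and 65 with total counts alone and 82 and 42 with upper-quartile normalization. Depth limits bta-miR-96 most, with 4 counts over the 3 grain-fed libraries.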
